A study of Homo sapiens with 14 samples.

Results

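The NRF2 antioxidant target genes examined here were NQO1, HMOX1, GCLC, GCLM, TXNRD1, SRXN1, ME1, GSR and TXN, read by every probe set that the platform annotation assigns to them. These 9 genes had 20 probe sets among the 54675 of the array, a probe set being the group of probes that measures 1 transcript region, and were 9 of 19775 genes with a probe set of their own. Of the 20, 15 passed the filter on dim values (a log2 value of at least 5 on at least 3 of 14 arrays) and all 9 genes kept at least 1. The data were 14 Affymetrix arrays of the kidney-derived human line HEK293, grown in RPMI medium with serum. The groups were 4 lines stably expressing HA-tagged HOXD9, 3 arrays of cells with the HA vector, 4 lines stably expressing V5-tagged HOXD13, and 3 arrays of cells with the V5 vector. All cells, those with empty vector included, had been transfected and kept under G418, which kills cells that lack a resistance gene. Each HOX gene was represented by a mixed population (mix) and by clones a, b and c picked from it, so that its 4 lines are not fully independent. The labels call the vector arrays of each tag biological replicates but do not say whether they came from separate cultures. The spread behind each p-value may therefore be partly technical.

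NRF2, encoded by NFE2L2, is a transcription factor that KEAP1 holds low by handing it to the CUL3-RBX1 ubiquitin ligase. When oxidants or electrophiles modify KEAP1, NRF2 accumulates, pairs with small MAF proteins and binds the antioxidant response element in front of its targets, while BACH1 competes for some of the same elements, those of HMOX1 above all. The targets make glutathione (GCLC and GCLM), return glutathione to its reduced form (GSR), run the thioredoxin system (TXN, TXNRD1), repair peroxiredoxins (SRXN1), supply NADPH (ME1) and remove quinones and haem (NQO1, HMOX1).

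The promoters of ME1, GCLM, TXNRD1 and SRXN1 are shown because ME1 held the only called probe set, GCLM lay with ME1 on most arrays, SRXN1 mostly lay on the other side of its vector from GCLM, and TXNRD1 was the member with all HOXD13 lines above the vector. Each is 300 bases from RefSeq on GRCh38.p14, written 5′ to 3′ on the strand of the gene, with 250 bases before the annotated start and 50 from it. Capitals mark matches, on either strand, to the core of the antioxidant response element, TGACNNNGC.
ME1 promoter, minus strand, chr6:83431002-83431301: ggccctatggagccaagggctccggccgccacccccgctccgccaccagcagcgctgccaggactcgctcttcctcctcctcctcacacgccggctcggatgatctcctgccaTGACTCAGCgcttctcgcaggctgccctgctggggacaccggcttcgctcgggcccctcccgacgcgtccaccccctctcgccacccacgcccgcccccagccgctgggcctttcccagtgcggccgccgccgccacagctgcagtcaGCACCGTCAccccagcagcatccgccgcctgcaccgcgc
GCLM promoter, minus strand, chr1:93909381-93909680: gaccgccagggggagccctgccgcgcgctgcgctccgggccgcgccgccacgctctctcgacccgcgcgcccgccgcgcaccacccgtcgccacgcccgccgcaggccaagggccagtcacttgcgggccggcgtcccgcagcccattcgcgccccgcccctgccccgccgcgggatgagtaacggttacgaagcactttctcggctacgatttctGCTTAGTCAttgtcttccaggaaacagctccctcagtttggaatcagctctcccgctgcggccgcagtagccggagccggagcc
TXNRD1 promoter, plus strand, chr12:104215529-104215828: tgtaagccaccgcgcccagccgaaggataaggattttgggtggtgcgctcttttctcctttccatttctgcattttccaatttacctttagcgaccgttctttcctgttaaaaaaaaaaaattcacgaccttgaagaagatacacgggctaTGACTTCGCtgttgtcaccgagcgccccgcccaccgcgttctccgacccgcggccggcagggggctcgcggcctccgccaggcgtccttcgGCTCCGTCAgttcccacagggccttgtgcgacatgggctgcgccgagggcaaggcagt
SRXN1 promoter, minus strand, chr20:653151-653450: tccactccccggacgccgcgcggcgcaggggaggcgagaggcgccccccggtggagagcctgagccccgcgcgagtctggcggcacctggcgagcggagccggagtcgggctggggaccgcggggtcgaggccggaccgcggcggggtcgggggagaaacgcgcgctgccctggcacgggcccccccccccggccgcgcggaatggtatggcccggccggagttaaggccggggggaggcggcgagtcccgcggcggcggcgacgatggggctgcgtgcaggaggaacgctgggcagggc
The ME1 window held 2 matches, 1 of which began 137 bases before the start, and the GCLM window held 1, beginning 34 bases before the start. The TXNRD1 window shown held 2, beginning 99 and 8 bases before the start. TXNRD1 had a further annotated start, whose window (chr12:104286782-104287081, not shown) held 1 match, beginning 102 bases before that start. No match lay in the SRXN1 window, nor in those of NQO1, GCLC and TXN. Of the 7 members with a promoter in the table, 3 therefore held the core in at least 1 window, against 16.1% of all 27305 genes and 13.3% of all 35116 windows. HMOX1 and GSR were not searched, nor was any sequence outside these windows, so an element further from the start would be missed. A match is a run of letters and not a measured site.

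The transgenes were read first. The probe set 205605_at of HOXD9 read 6.65 to 7.76 in the HOXD9 lines against 2.52 to 2.83 in the HA vector arrays, and 207397_s_at of HOXD13 read 12.24 to 12.59 in the HOXD13 lines against 6.84 to 7.01 in the V5 vector arrays. A further HOXD9 probe set, 205604_at, did not pass in the HOXD9 lines (log2 fold change 0.19, limma adjusted p = 0.653). Of the other HOXD13 probe sets, 207398_at read 8.26 to 8.41 in the HOXD13 lines against 3.05 to 3.45 in the V5 vector arrays. On 236681_at the HOXD13 mix and clones a and b read 10.15 to 10.42 and clone c 8.87, against 8.93 to 8.95 in the V5 vector arrays, so clone c lay below them. Of 7 genes fixed as markers of HEK293, EYA1, NEFL and INA passed the filter, while PAX2, LHX1 and NEFM did not. Of the epithelial markers CDH1, EPCAM, KRT8 and KRT18 passed, of the fibroblast markers COL1A1 alone, and 0 of the squamous, endothelial and blood markers, whose highest value was 2.66. The HA and V5 arrays had been normalized as separate sets (75th percentiles of 6.27 and 7.02), so HOX lines were compared only with vector arrays of their own tag. In bulk RNA, fewer cells of a kind and less RNA per cell cannot be told apart. The vector arrays of a tag varied little (median SD per probe set 0.05 for HA and 0.06 for V5, n = 3 each), whereas the median SD was 0.28 in the HOXD9 lines and 0.27 in the HOXD13 lines (n = 4 each). The array control for ACTB also varied among the lines. Its 3′ minus 5′ difference, which grows as RNA or cDNA shortens, was 2.26, 1.70, 2.35 and 2.10 in the HOXD9 mix and clones a, b and c, against 2.29 to 2.37 in HA vector arrays. It was 2.13, 2.01, 1.82 and 2.80 in the HOXD13 mix and clones a, b and c, against 2.19 to 2.26 in V5 vector arrays. The same difference for the GAPDH control was 0.64, 0.64, 0.64 and 0.61 in the HOXD9 mix and clones a, b and c, against 0.65 to 0.69 in HA vector arrays. For GAPDH the HOXD13 mix and clones a, b and c had 0.53, 0.57, 0.56 and 0.86, against 0.68 to 0.72 in V5 vector arrays.

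In the HOXD9 lines no member probe set passed the test. By limma, with p-values adjusted by Benjamini-Hochberg over all 19816 probe sets tested, 0 of 15 were called at an adjusted p under 0.05, and 4 had an unadjusted p under 0.05. Of all 19816, 4088 had an unadjusted p under 0.05. Over all probe sets 6 (0.0303%) were called, 4 higher (0.0202%) and 2 lower (0.0101%). That total moved with single arrays: it was 787 without HOXD13 clone c (the fit pools the spread of the 4 groups), 3 without HOXD13 clone a, 2 without HOXD9 mix, HOXD9 clone c, HOXD13 mix or any 1 V5 vector array, and 1 without any 1 HA vector array. The median log2 fold change was -0.24 over the 15 member probe sets and 0.04 over all tested. Of the 15, 6 lay below all 3 HA vector arrays in all 4 lines and 0 lay above, whereas over all probe sets 14.2% lay below and 18.0% above, 32.1% in all. The 6 were every tested probe set of GCLM and ME1 and GCLC 202923_s_at, so they stand for fewer genes than probe sets.

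In the HOXD13 lines 1 of the 15 probe sets fell, that of ME1 described next, and 14 did not pass, 3 of the 15 having an unadjusted p under 0.05. Of all 19816 tested probe sets, 4970 had an unadjusted p under 0.05 with HOXD13. Over all probe sets 8.68% were called, 2.49% higher and 6.19% lower, so 1 call in 15 is near the background. The median log2 fold change was -0.16 over the members and -0.02 over all. Of the 15, 1 lay above all 3 V5 vector arrays in all 4 lines and 4 lay below, against 8.60% and 18.1% of all probe sets, 26.7% in all. The total of 1721 calls was 6496 without HOXD13 clone c and 2780 without HOXD9 clone c. It was 371 to 468 without 1 V5 vector array, 1098 to 1128 without 1 HA vector array, and 799, 701 and 803 without HOXD13 mix, clone a and clone b. Without HOXD13 clone c 5 of the 15 member probe sets were called, where 6496 of all 19816 were, so 5 in 15 is near the background of that fit. The difference between the HOXD13 and HOXD9 effects passed for no member (0 of 15 called by limma, 4 at an unadjusted p under 0.05), where 6.56% of all were called, 1.06% with a positive and 5.50% with a negative difference. An unadjusted p under 0.05 for the difference was reached by 4574 of all 19816.

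**Figure D1:**
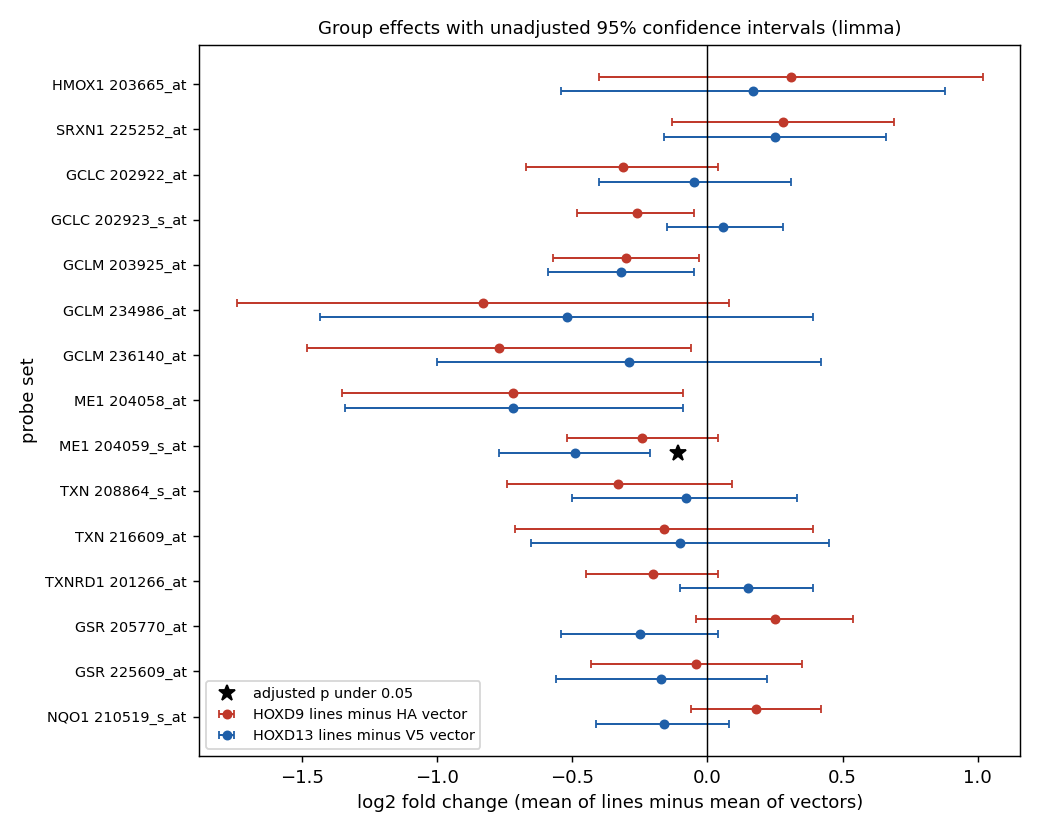
Log2 fold change of each tested member probe set (rows) in HOXD9 lines over HA vector arrays (red) and HOXD13 lines over V5 vector arrays (blue), with unadjusted 95% confidence intervals from limma (4 lines and 3 vector arrays a tag). The star marks the 1 call, ME1 204059_s_at with HOXD13 at -0.49.

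ME1, cytosolic malic enzyme, turns malate into pyruvate and yields NADPH, the reductant on which glutathione and thioredoxin depend. Its brighter probe set, 204059_s_at, read 9.52, 9.48, 9.42 and 9.96 in the HOXD13 mix and clones a, b and c, against 10.10, 10.08 and 10.07 on the V5 vector arrays. All 4 lines lay below all vector arrays, clone c nearest to them. The mean fell to 9.59 ± 0.25 (SD, n = 4) in the HOXD13 lines, against 10.08 ± 0.02 (n = 3) in the vector, a log2 fold change of -0.49 (SE 0.13, 0.711-fold, limma adjusted p = 0.0356). An exact two-sided permutation test over the 7 arrays gave p = 0.0571, the smallest that 4 against 3 allows. Any probe set with all 4 lines on 1 side of the vector gives this value, as 26.7% of all tested probe sets did with HOXD13. It therefore adds nothing to the call. The call rested on small margins. It ended without any 1 HA vector array (adjusted p = 0.0579, 0.0582 and 0.0580 without replicates 1, 2 and 3), any 1 V5 vector array (0.128, 0.124 and 0.124), HOXD13 mix (0.0952), clone a (0.106) or clone b (0.0999), and it held without clone c (log2 fold change -0.61, adjusted p = 0.000415). It also ended with the 7 V5 arrays alone (0.0916), without the filter (0.0644), with the mean of the probe sets of each gene (0.0739) and without the mixed populations (0.121).

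The dimmer ME1 probe set, 204058_at, read 8.38, 8.06, 7.74 and 9.19 in the HOXD13 mix and clones a, b and c, against 9.05, 9.16 and 8.96 on the V5 vector arrays. The mix and clones a and b lay below every vector array, and clone c above. Its log2 fold change of -0.72 (SE 0.29) did not pass (limma adjusted p = 0.143). Without clone c it was -1.0 (adjusted p = 0.00393), in a fit that called 6496 of all 19816 probe sets.

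With HOXD9 both ME1 probe sets lay below the vector in every line without passing the test. The brighter read 9.21, 9.07, 9.16 and 8.89 in the HOXD9 mix and clones a, b and c, against 9.34, 9.33 and 9.30 on the HA vector arrays (log2 fold change -0.24, SE 0.13, limma adjusted p = 0.296). The dimmer read 7.55, 6.90, 7.66 and 6.84 in the same lines, against 8.05, 7.89 and 7.94 on the HA vector arrays (log2 fold change -0.72, SE 0.29, adjusted p = 0.206). On this probe set clones a and c were lowest. The brighter ME1 probe set was thus below all vector arrays of its tag in 8 of 8 lines, and the dimmer in 7 of 8. These are not 8 independent lines, since the clones were picked from the mixed populations. Of all tested probe sets 14.2% lay below in all 4 HOXD9 lines and 18.1% in all 4 HOXD13 lines. The share below in both sets was not counted. The remaining ME1 probe set, 211204_at, stayed at the floor of the array, at 2.27 to 2.34.

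**Figure D2:**
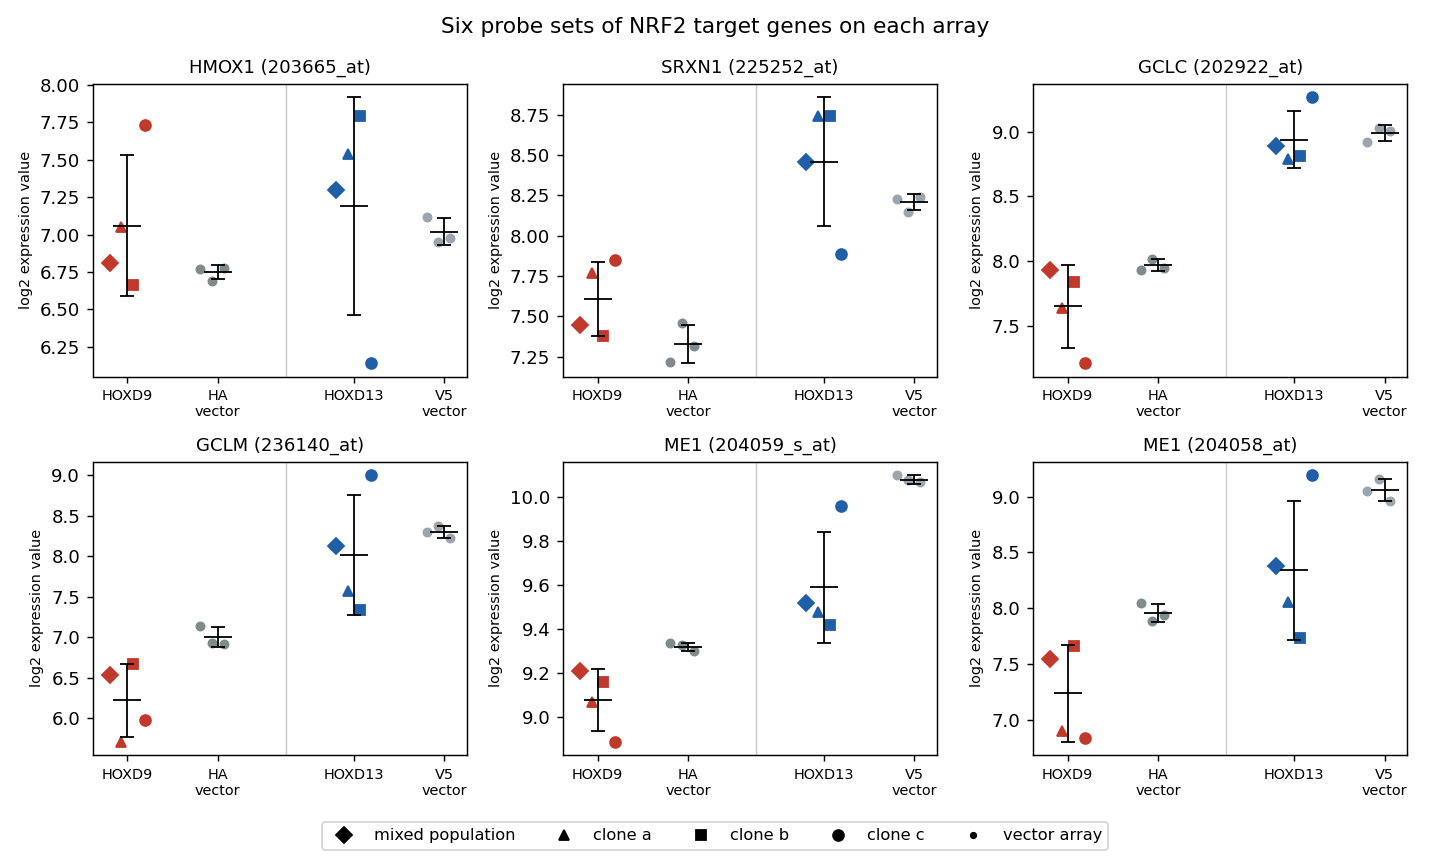
Log2 expression values of 6 probe sets of HMOX1, SRXN1, GCLC, GCLM and ME1 on each array, by group, with bars for mean and SD (n = 4 lines or 3 vector arrays); each panel has its own axis, and levels compare only within a tag, on either side of the grey line. In the HOXD13 groups clone c (circle) lies apart from the mix and clones a and b in each panel, at 6.14 for HMOX1 and 9.19 for ME1 204058_at. On GCLC 202923_s_at, which is not drawn, clone c read 9.41, within the 9.25 to 9.45 of the other HOXD13 lines.

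Glutathione synthesis starts with glutamate-cysteine ligase, whose catalytic subunit is GCLC and whose modifier subunit, GCLM, raises its efficiency. Of the 3 GCLM probe sets, 234986_at and 236140_at varied most between lines (SD 0.70 and 0.45 in the HOXD9 lines, 0.89 and 0.74 in the HOXD13 lines, n = 4 each). In the HOXD9 mix and clones a, b and c 236140_at read 6.53, 5.71, 6.67 and 5.98, and the HA vector arrays 7.14, 6.93 and 6.92. All 4 lines lay below the vector, clones a and c furthest (log2 fold change -0.77, SE 0.33, limma adjusted p = 0.220). The probe set 234986_at read 6.02, 5.13, 6.32 and 4.87 in these lines, against 6.37, 6.41 and 6.49 on the HA vector arrays, with clones a and c again furthest (log2 fold change -0.83, SE 0.42, adjusted p = 0.268). The brightest, 203925_at, read 8.40, 8.14, 8.41 and 8.61 in these lines, against 8.70, 8.69 and 8.67 on the HA vector arrays. Here too all 4 lines lay below, but clone c was the nearest to the vector (log2 fold change -0.30, SE 0.13, adjusted p = 0.218).

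In the HOXD13 lines GCLM was split by clone c. The probe set 236140_at read 8.13, 7.57, 7.34 and 9.0 in the HOXD13 mix and clones a, b and c, against 8.30, 8.37 and 8.23 on the V5 vector arrays. The probe set 234986_at read 6.92, 6.63, 6.37 and 8.35 in these lines, against 7.59, 7.66 and 7.51 on the V5 vector arrays. On both, the mix and clones a and b lay below the vector and clone c above, and neither passed (limma adjusted p = 0.639 and 0.480). The brightest read 9.10, 9.01, 8.91 and 9.30 in the lines against 9.30, 9.52 and 9.37 on the V5 vector arrays, with clone c at the edge of the vector range (log2 fold change -0.32, SE 0.13, adjusted p = 0.134). Without clone c 203925_at and 234986_at passed, at -0.39 (adjusted p = 0.0214) and -0.95 (adjusted p = 0.0308). In that fit 6496 of all 19816 probe sets passed.

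The mean shift of GCLC from the vector was smaller than that of GCLM in each of the 8 lines, a comparison that was not tested. Its probe set 202923_s_at read 8.38, 8.15, 8.47 and 8.31 in the HOXD9 mix and clones a, b and c, against 8.65, 8.57 and 8.56 on the HA vector arrays. All 4 lines lay below the vector, and this was the member with the smallest unadjusted p in the HOXD9 comparison (0.0209; log2 fold change -0.26, SE 0.10, limma adjusted p = 0.195). The other, 202922_at, lay between 7.21 and 7.93 in the HOXD9 lines against 7.93 to 8.02 in the HA vector arrays, clone c being lowest (adjusted p = 0.279). With HOXD13 the log2 fold changes were 0.06 and -0.05 (SE 0.10 and 0.16, 95% intervals -0.15 to 0.28 and -0.40 to 0.31), and the lines overlapped the vector on both. GSR, glutathione reductase, returns oxidised glutathione to its reduced form. Its probe set 205770_at read 7.12 to 7.26 in the HOXD13 lines against 7.41 to 7.52 in the V5 vector arrays, all lines below (log2 fold change -0.25, SE 0.13, adjusted p = 0.266). The same probe set read 7.04 to 7.67 in the HOXD9 lines, against 6.95 to 7.07 in the HA vector arrays (log2 fold change 0.25, SE 0.13, adjusted p = 0.293). The difference between these effects did not pass (adjusted p = 0.136). The brighter GSR probe set, 225609_at, read 9.84 to 10.0 in the HOXD13 lines against 10.01 to 10.11 in the V5 vector arrays (adjusted p = 0.613). In the HOXD9 lines it read 9.62, 8.85, 9.36 and 9.87 in the mix and clones a, b and c, on both sides of the HA vector arrays (9.36 to 9.55; log2 fold change -0.04, 95% interval -0.43 to 0.35).

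HMOX1, haem oxygenase 1, breaks haem down to biliverdin, iron and carbon monoxide. Its 1 probe set, 203665_at, read 7.30, 7.54, 7.79 and 6.14 in the HOXD13 mix and clones a, b and c, against 7.12, 6.95 and 6.98 on the V5 vector arrays. The mix and clones a and b lay above the vector and clone c below, so the group means were close (7.19 ± 0.73 in the HOXD13 lines, n = 4, and 7.02 ± 0.09 in the vector, n = 3; log2 fold change 0.17, 95% interval -0.54 to 0.88, limma adjusted p = 0.800). In the HOXD9 mix and clones a, b and c it read 6.81, 7.05, 6.66 and 7.73, against 6.77, 6.69 and 6.78 on the HA vector arrays. Clone c was about 1 log2 unit above the vector, clone a less so, and the mix and clone b lay close to it (log2 fold change 0.31, 95% interval -0.40 to 1.02, adjusted p = 0.561).

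SRXN1, sulfiredoxin, repairs overoxidised peroxiredoxins, and its line pattern was like that of HMOX1. Its probe set 225252_at read 8.46, 8.74, 8.74 and 7.89 in the HOXD13 mix and clones a, b and c, against 8.23, 8.15 and 8.24 on the V5 vector arrays. Clone c alone lay below the vector (log2 fold change 0.25, SE 0.19, limma adjusted p = 0.447). Without clone c SRXN1 passed, at 0.44 (adjusted p = 0.0256), in the fit where 6496 of all 19816 probe sets passed. In the HOXD9 mix and clones a, b and c it read 7.45, 7.77, 7.38 and 7.85, against 7.22, 7.46 and 7.32 on the HA vector arrays. Clones a and c lay above the vector, and the mix and clone b within its range (log2 fold change 0.28, SE 0.19, adjusted p = 0.380).

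TXN, thioredoxin, is the small protein that reduces disulfides and is itself recharged by TXNRD1. Its brighter probe set, 208864_s_at, read 12.87, 12.71, 12.60 and 13.27 in the HOXD13 mix and clones a, b and c, against 12.93 to 12.96 in the V5 vector arrays. The HOXD9 mix and clones a, b and c read 12.02, 11.60, 12.20 and 11.36, against 12.09 to 12.15 in the HA vector arrays. As with GCLM 234986_at and 236140_at, but not 203925_at, HOXD13 clone c lay above its vector and HOXD9 clones a and c lay lowest. Neither TXN comparison passed (log2 fold changes -0.08 and -0.33, limma adjusted p = 0.843 and 0.326). The dimmer, 216609_at, stood within 0.20 of the vector mean in every line but HOXD9 clone a, which read 4.67 against 5.80 to 5.83 in the HA vector arrays. TXNRD1, the selenoprotein reductase, had 10.91 to 11.05 in the HOXD13 lines against 10.80 to 10.88 in the V5 vector arrays. It was the 1 probe set with all HOXD13 lines above the vector, at a log2 fold change of 0.15 (95% interval -0.10 to 0.39, adjusted p = 0.459). In the HOXD9 lines it lay at 9.62 to 10.13 against 10.09 to 10.16 in the HA vector arrays (adjusted p = 0.308). NQO1, a quinone reductase and the usual marker of NRF2 activity, was dim in all groups. Of its 3 probe sets only 210519_s_at passed the filter, with 4.96 to 5.08 in the HOXD13 lines against 5.09 to 5.28 in the V5 vector arrays (log2 fold change -0.16, adjusted p = 0.405). With HOXD9 it read 4.85 to 5.30 against 4.78 to 4.89 in the HA vector arrays (log2 fold change 0.18, adjusted p = 0.342). The 5 member probe sets under the filter, 2 of NQO1 and 1 each of GCLC, TXNRD1 and ME1, read 2.24 to 3.39 on all arrays.

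The members did not shift as a block within a line. HMOX1 and SRXN1 stood on the opposite side of the vector mean from GCLM (mean of its 3 probe sets) in the HOXD13 mix, clones a, b and c, and in the HOXD9 mix and clones a and c. In HOXD13 clone b the shifts were 0.77 for HMOX1, 0.53 for SRXN1, -0.89 for GCLM and -0.99 for ME1. In HOXD13 clone c they were -0.88, -0.31, 0.46 and 0 for the same genes. In HOXD9 clone c they were 0.98, 0.52, -0.88 and -0.78. The lines with large shifts of members were also far from the vector over all probe sets: 51.4% of all tested probe sets and 9 of 15 member probe sets lay over 0.5 from the vector mean in HOXD9 clone c, and 4.17% and 0 of 15 in the HOXD9 mix. In HOXD13 clone b these figures were 35.9% and 6 of 15.

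**Figure D3:**
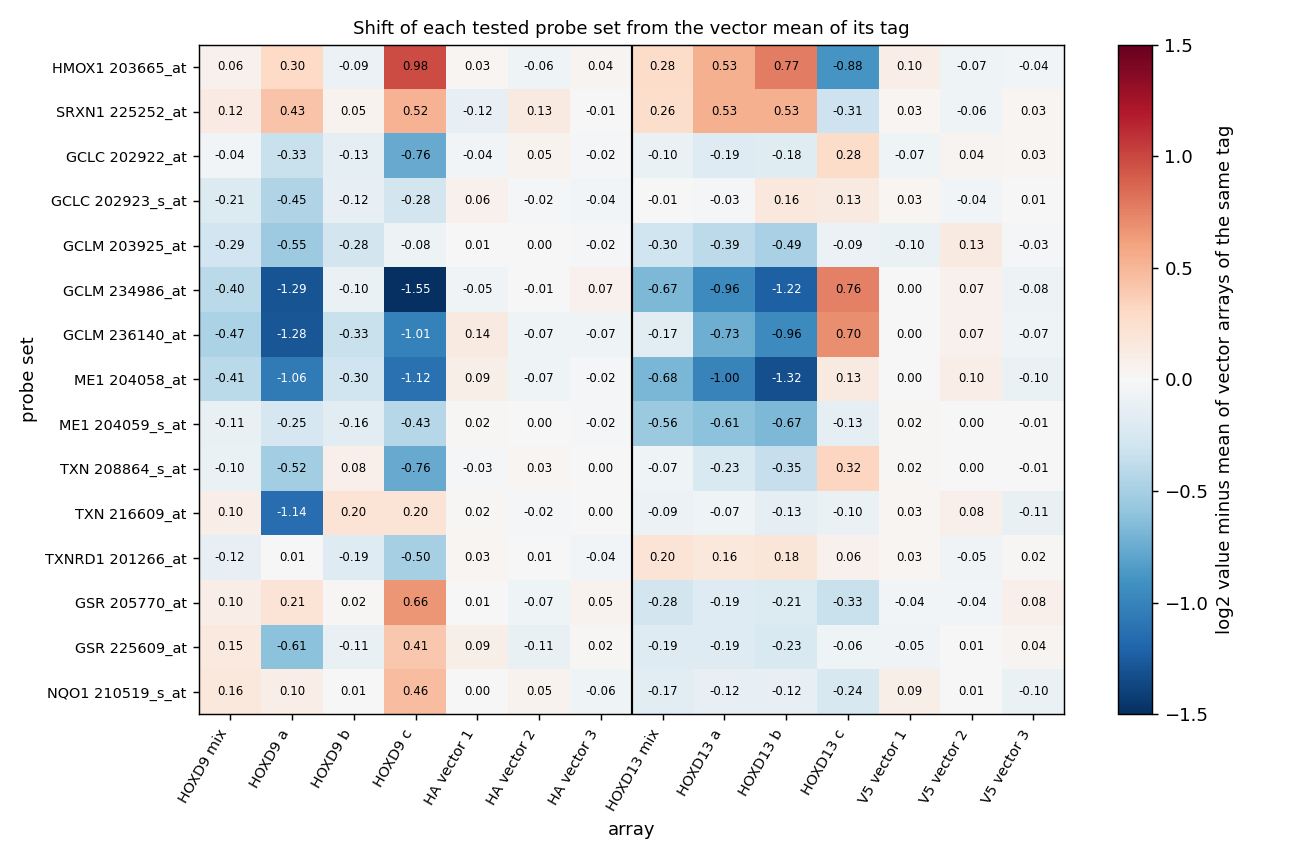
Log2 value of each tested member probe set (rows) minus the mean of the 3 vector arrays of the same tag, for every array (columns). Red is above and blue below the vector mean. HMOX1 and SRXN1 are red where GCLM and ME1 are blue in most lines, and HOXD13 clone c shows the reverse for HMOX1 (-0.88) and GCLM 234986_at (0.76).

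The ACTB control moved with these shifts. Relative to the vector mean, its 3′ minus 5′ difference was -0.10, -0.23, -0.41 and 0.57 in the HOXD13 mix and clones a, b and c. Over these lines HMOX1 shifted by 0.28, 0.53, 0.77 and -0.88, and GCLM by -0.38, -0.69, -0.89 and 0.46. In the HOXD9 mix and clones a, b and c the ACTB value was -0.07, -0.62, 0.03 and -0.23, where HMOX1 shifted by 0.06, 0.30, -0.09 and 0.98, and GCLM by -0.38, -1.04, -0.24 and -0.88. The lines with the smaller ACTB difference were those with more HMOX1 and less GCLM in both sets, although within HOXD9 the order of clones a and c was not the same for HMOX1. The GAPDH control did not follow the ACTB value in the HOXD9 lines, at 0.64 in the mix and clones a and b and 0.61 in clone c. In the HOXD13 lines clone c was highest on both controls. Whether RNA or cDNA length underlies the shifts was not tested. With the ACTB difference as a covariate 3 of 15 member probe sets were called lower with HOXD13 and 0 higher: both ME1 probe sets and GCLM 203925_at (log2 fold changes of -0.66 for 204058_at, adjusted p = 0.0047, and -0.30 for GCLM, adjusted p = 0.0343). In that fit 4454 of 19816 probe sets were called with HOXD13. With HOXD9 0 of 15 were called under it.

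**Figure D4:**
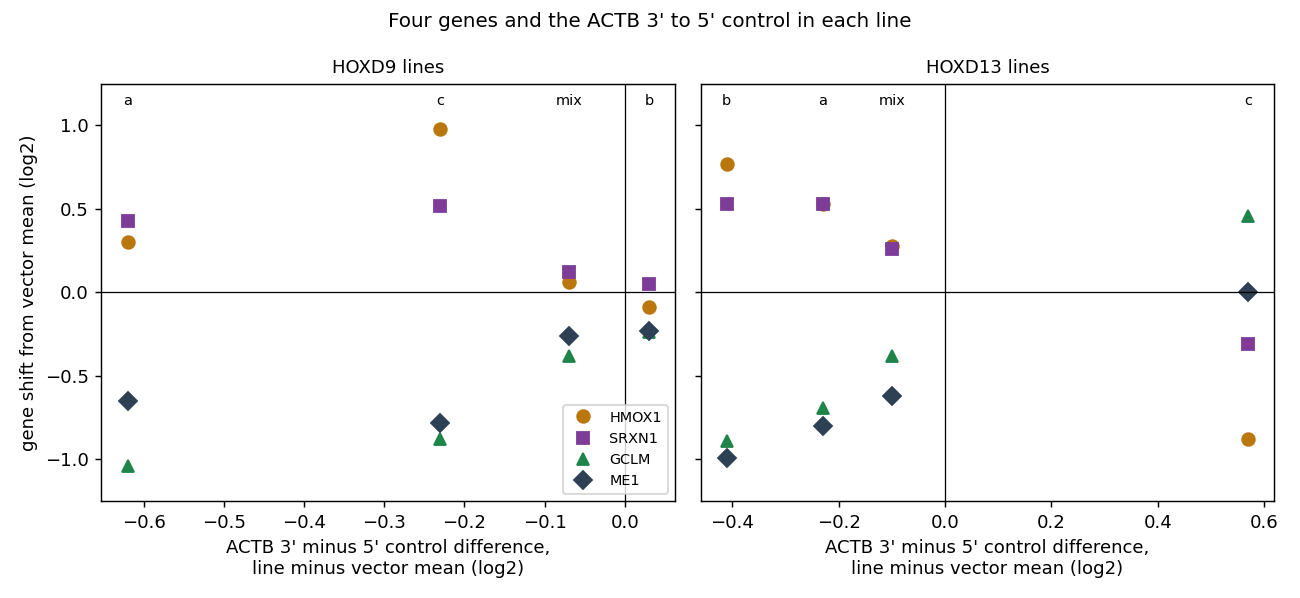
Shift of HMOX1, SRXN1, GCLM and ME1 from the vector mean of the tag (vertical, log2, mean of the tested probe sets of each gene) against the shift of the ACTB 3′ minus 5′ control (horizontal, log2), for the 4 HOXD9 lines (left) and the 4 HOXD13 lines (right), each line named above its points. HOXD13 clone c, at 0.57 on the horizontal axis, has HMOX1 at -0.88 and GCLM at 0.46.

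The regulators of the pathway were read by 21 tested probe sets of 13 genes. With HOXD13 2 rose, 1 fell and 18 did not pass by limma. Of all probe sets 2.49% rose and 6.19% fell with HOXD13, so 1 fall in 21 is near the background. With HOXD9 0 of 21 were called by limma and 2 had an unadjusted p under 0.05, as did 4088 of all 19816. MAFF, a small MAF partner of NRF2, read 8.86, 9.09, 9.43 and 7.60 in the HOXD13 mix and clones a, b and c, against 7.11, 7.10 and 7.09 on the V5 vector arrays. All lines lay above the vector, clone c least (log2 fold change 1.65, SE 0.34, adjusted p = 0.0124). The call ended without any 1 V5 vector array, with the 7 V5 arrays alone, without the filter and without the mixed populations, and its adjusted p reached 0.0638 over the alternatives. SQSTM1, the autophagy receptor p62 that can draw KEAP1 away from NRF2 and is itself an NRF2 target, fell by 0.62 (SE 0.13, adjusted p = 0.0115) on 201471_s_at. It read 9.67 to 10.07 in the HOXD13 lines against 10.45 to 10.47 in the V5 vector arrays, and this call too ended without any 1 V5 vector array (adjusted p up to 0.0608 over the alternatives). The other SQSTM1 probe set, 244804_at, read 0.35 (adjusted p = 0.298). The SQSTM1 effects differed between the HOX genes (HOXD13 minus HOXD9 -0.85, adjusted p = 0.0174). NFE2L3, a relative of NRF2, rose by 0.97 on the dim probe set 236471_at (adjusted p = 0.0358), a call that ended without any 1 of 10 arrays: every HA vector and V5 vector array, HOXD9 mix, and HOXD13 mix, clones a and b (adjusted p up to 0.136 over the alternatives). Its brighter probe set did not pass (0.53, adjusted p = 0.115).

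NFE2L2 itself read 10.50, 10.62, 10.46 and 11.07 in the HOXD13 mix and clones a, b and c, against 10.97 to 11.02 in the V5 vector arrays (log2 fold change -0.33, limma adjusted p = 0.300). In the HOXD9 mix and clones a, b and c it read 9.84, 9.81, 9.95 and 9.11, against 9.90 to 9.96 in the HA vector arrays (log2 fold change -0.25, adjusted p = 0.435). KEAP1 had log2 fold changes of 0.38 with HOXD13 and 0.31 with HOXD9 (adjusted p = 0.279 and 0.376), with HOXD13 clone c, at 9.96, below the V5 vector arrays at 10.31 to 10.33 and the other 3 HOXD13 lines above them. BACH1, a repressor of HMOX1, read 7.12, 7.10, 7.53 and 5.88 in the HOXD9 mix and clones a, b and c, against 7.47 to 7.51 in the HA vector arrays. In the HOXD13 mix and clones a, b and c it read 8.62, 8.61, 8.41 and 9.04, against 8.57 to 8.60 in the V5 vector arrays. Its log2 fold changes were -0.59 with HOXD9 and 0.08 with HOXD13 (limma adjusted p = 0.259 and 0.908). Its relation to HMOX1 was not tested. The 3 probe sets of CUL3 lay between -0.57 and -0.37 with HOXD9 and between -0.25 and 0.09 with HOXD13, and RBX1 at 0.11 and -0.15, all without a call. MAFG, a further small MAF, had -0.21 and -0.36 with HOXD13 and 0.14 and 0.24 with HOXD9. NFE2L1, the proteasome regulator related to NRF2, lay between -0.03 and 0.05 with HOXD13 and between 0.10 and 0.24 with HOXD9 on its 3 probe sets. BTRC, which leads NRF2 to degradation by a route without KEAP1, and DPP3 and PALB2, which bind KEAP1, were not called in either comparison.

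In the wider set of NRF2 targets some probe sets were called with HOXD13 and 0 with HOXD9, by limma. Its enzymes of NADPH supply had 0 of 6 probe sets called with HOXD13 and 0 of 6 with HOXD9 (2 at an unadjusted p under 0.05 in each). An unadjusted p under 0.05 was reached by 4970 of all 19816 probe sets with HOXD13 and by 4088 with HOXD9. TKT, a transketolase of the pentose phosphate path, had the smallest p in each: 208700_s_at with HOXD13 (-0.22, adjusted p = 0.168) and 208699_x_at with HOXD9 (0.35, adjusted p = 0.193). Of 14 probe sets of glutathione use, conjugation and export 1 rose and 2 fell with HOXD13, where 2.49% of all rose and 6.19% fell. The exporter ABCC5 rose by 0.80 on 226363_at (adjusted p = 0.00882), a call that ended without V5 vector array 1 or with array weights per group (adjusted p up to 0.0925 over the alternatives). The brighter ABCC5 probe set, 209380_s_at, did not pass (0.34, adjusted p = 0.212), and on it HOXD13 clone c read 7.41 against 7.46 to 7.50 in the V5 vector arrays. The glutathione transferases GSTA4 and GSTP1 fell by 0.48 and 0.43 (adjusted p = 0.0478 and 0.0344). GSTP1 read 11.04 to 11.31 in the HOXD13 lines against 11.62 to 11.67 in the V5 vector arrays. With HOXD9 it read 11.40 to 11.79 against 11.13 to 11.15 in the HA vector arrays (0.44, adjusted p = 0.169), and the effects differed (HOXD13 minus HOXD9 -0.86, adjusted p = 0.00986). With HOXD9 0 of 14 were called and 5 had an unadjusted p under 0.05, among them SLC7A11, the cystine importer, at -0.87 on 217678_at (adjusted p = 0.184).

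Of 10 probe sets of carbonyl reduction and detoxication 3 fell with HOXD13 and 0 rose: PIR, an iron-binding nuclear protein, at a log2 fold change of -0.81 (adjusted p = 0.0215), and both tested probe sets of PTGR1, which reduces prostaglandins and alkenals, at -0.58 and -0.49 (adjusted p = 0.0359 and 0.0396). Of 14 probe sets of iron and haem 3 fell and 0 rose with HOXD13. For both lists the shares over all probe sets were 6.19% lower and 2.49% higher. BLVRB, a biliverdin reductase, read 9.33 to 9.56 in the HOXD13 lines against 10.05 to 10.12 in the V5 vector arrays, and fell by 0.67 (SE 0.12, limma adjusted p = 0.00539). This call held in all 24 alternative fits on probe sets that were run (adjusted p up to 0.0374). BLVRB read 9.71 to 10.15 in the HOXD9 lines, against 9.26 to 9.30 in the HA vector arrays (0.59, adjusted p = 0.132), and the effects differed by -1.26 (adjusted p = 0.00216). FECH, ferrochelatase, the last enzyme of haem synthesis, fell by 1.11 on 203115_at and 0.76 on 203116_s_at (adjusted p = 0.0102 and 0.0286).

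Other antioxidant enzymes had 39 tested probe sets, of which 1 rose, 8 fell and 30 did not pass with HOXD13, while with HOXD9 0 were called by limma (9 at an unadjusted p under 0.05). Over all probe sets 2.49% rose and 6.19% fell with HOXD13, and 4088 of 19816 had an unadjusted p under 0.05 with HOXD9. The median log2 fold change was -0.17 with HOXD13 and 0.14 with HOXD9, against -0.02 and 0.04 over all probe sets. The called probe sets with the largest change were those of MSRB2, a mitochondrial methionine sulfoxide reductase, which fell by 2.70 on 219451_at (adjusted p = 0.0265) and 1.11 on 218773_s_at (adjusted p = 0.0069). The first read 5.92, 3.94, 3.98 and 7.69 in the HOXD13 mix and clones a, b and c, against 7.98, 8.17 and 8.11 on the V5 vector arrays. TXNRD2, the mitochondrial thioredoxin reductase, fell by 0.75 (adjusted p = 0.0129). For MSRB2 219451_at the call ended without any 1 V5 vector array or HOXD13 clone a or b (adjusted p up to 0.126 over the alternatives), and for TXNRD2 without V5 vector array 2 or 3 (up to 0.0742). GSS, which completes glutathione after the ligase of GCLC and GCLM, read 8.20 to 8.40 in the HOXD13 lines against 8.81 to 8.95 in the V5 vector arrays and fell by 0.59 on 201415_at (adjusted p = 0.0278). This call ended without any 1 V5 vector array, HOXD13 mix, clone a or clone b (adjusted p up to 0.118 over the alternatives). Its dimmer probe set, 211630_s_at, did not pass (-0.50, adjusted p = 0.0503).

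The calls of GSTP1, GSTA4, PTGR1, PIR and FECH also depended on single arrays. Each ended without at least 2 of the 14 arrays, V5 vector arrays among them, and adjusted p over the alternatives reached 0.132 for GSTP1, 0.158 for GSTA4, 0.135 and 0.145 for the PTGR1 probe sets, 0.0951 for PIR, and 0.0695 and 0.109 for the FECH probe sets. The differences of effect held in all 23 alternative fits on probe sets for BLVRB, GSTP1, GSS and TXNRD2, with adjusted p up to 0.0141, 0.0381, 0.0471 and 0.0479. The difference for SQSTM1 ended without any 1 vector array of either tag (adjusted p up to 0.0584 over the alternatives). Those for PIR, FECH 203116_s_at and MSRB2 218773_s_at ended without any 1 of 7, 12 and 3 arrays (adjusted p up to 0.0867, 0.133 and 0.0545).

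Probe sets with the pattern most like that of a member were sought over the 7 arrays of a tag set. For ME1 204059_s_at in the HOXD13 and V5 vector arrays these were ARFGAP3, FYN, RAB39B, ARPIN and CAP2 (Pearson r = 0.999, 0.998, 0.998, 0.998 and 0.997, n = 7). For GCLC 202923_s_at in the HOXD9 and HA vector arrays they were TAF1B, PAWR, BCLAF1, LPAR1 and SOS2 (r = 0.989, 0.986, 0.986, 0.985 and 0.985, n = 7). These are the highest of the correlations with all other tested probe sets over arrays that share a normalization and fall into lines and vectors, and they are a description only.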

How the data were processed

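Expression was measured on 14 one-colour Affymetrix arrays of HEK293 lines. The deposited values are log2 expression values per probe set, made by GCRMA per the submitters' processing notes; the scale was read from the values, and neither its version nor a genome build was stated in the sources used here. GCRMA corrects background by probe sequence and leaves undetected transcripts near a floor, where differences are compressed. Sorted values were equal within 0.00102 over the 7 arrays of the HA set and 0.00195 over the V5 set, so the sets were normalized separately. The number of arrays limits the precision.

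Of 54675 probe sets, 62 controls were left out. In the platform annotation 41097 had 1 gene symbol, 1801 several and 11777 none; symbols were updated through RefSeq (41043 matched). Probe sets with several genes were not used for named genes, and 7 of the 92 genes listed beside the members were not analysed here. Probe sets of at least 5 on at least 3 arrays were tested (19816). Group means were fitted to all 14 arrays with limma 3.58.1 in R 4.3.3 (10 residual degrees of freedom, prior 3.01); each HOX gene was set against the vector of its own tag, and the effects against each other, two-sided, Benjamini-Hochberg adjusted. The script was tested on simulated data. Named were all members, all tested regulators, and of each other list and comparison up to 3 called probe sets with the largest change, or else the 2 with the smallest p. The members and lists were chosen with earlier results of these data known. Other filters, scalings, spreads, gene summaries, the ACTB covariate and leaving out arrays were tried as alternatives. For named probe sets outside the members, calls were followed only in alternatives fitted to probe sets, not in the gene summaries. Figures used matplotlib 3.10.9 in Python 3.11.15.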

Additional observations from a re-analysis of the deposited data

Results flagged for a closer look

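Of 114 groups of 4 HOX lines examined for a line far from the other 3, 9 held one, by Dixon's criterion (gap over range above 0.829), and chance flags about 1 in 20 groups. Among the members this was TXN 216609_at in HOXD9 clone a, at 4.67 where the other HOXD9 lines read 5.92 to 6.02. Clone c stood apart in the other 8. In HOXD9 clone c NFE2L2 read 9.11 (others 9.81 to 9.95), CUL3 201372_s_at 3.06 (others 3.69 to 3.75) and CBR3 7.47 (others 7.01 to 7.03). In HOXD13 clone c NFE2L1 read 10.39 on 200759_x_at (others 10.85 to 10.92) and 9.91 on 214179_s_at (others 10.41 to 10.44), BTRC 8.96 (others 9.10 to 9.13), TALDO1 11.41 (others 11.82 to 11.88) and TXNRD2 7.52 (others 7.11 to 7.17).

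No member probe set had HOXD13 and HOXD9 effects that differed past the threshold. For 8 named probe sets of the other lists they did, by limma's test of the difference (HOXD13 effect minus HOXD9 effect, log2): SQSTM1 201471_s_at at -0.85, GSTP1 at -0.86, PIR at -1.15, BLVRB at -1.26, FECH 203116_s_at at -1.0, GSS at -1.07, MSRB2 218773_s_at at -1.35 and TXNRD2 at -1.15. Each of the 8 was lower than the vector with HOXD13 (log2 fold changes of -1.11 to -0.43) and had a positive, uncalled log2 fold change of 0.23 to 0.59 with HOXD9. The 8 stood among 42 named probe sets of the other lists. Of all tested probe sets 6.56% were called for the difference, 5.50% with a negative one. Outside the regulators, probe sets were named for a call or a small p with HOXD13 or HOXD9. The difference holds those same effects, so the number passing and the shared direction follow in part from that choice.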

How the results depend on the processing

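Over all alternatives the log2 fold changes of the 15 member probe sets kept their sign and their side of the threshold in 1052 instances, lost a call in 13, gained one in 9 and changed sign in 39. The 13 lost calls were all ME1 204059_s_at with HOXD13, whose log2 fold change stayed between -0.61 and -0.43. The number of all probe sets called was far less stable (main values 6 with HOXD9, 1721 with HOXD13 and 1299 for the difference). With HOXD9 it was 1 with the 7 arrays of the tag alone, 11 without a filter, 10 with a filter at 7, 1 with the brightest probe set per gene and 2 with the mean per gene. With HOXD13 it was 2898 with array weights per group, 1112 without a filter, 1101 with the brightest probe set and 1144 with the mean per gene. For the difference it was 735 without a filter. With the ACTB covariate the counts were 33, 4454 and 3149, without the mixed populations 1, 495 and 448, and without HOXD9 clone a and HOXD13 clones b and c, whose ACTB control deviated by over 0.4 (an alternative chosen after seeing the data), 167, 5761 and 3444. HOXD13 member calls numbered 0 with 7 arrays, without a filter, with the mean per gene and without the mixed populations, 2 with array weights and 3 under both ACTB settings. Leaving out 1 array gave 1 to 787 calls with HOXD9, 371 to 6496 with HOXD13 and 340 to 3688 for the difference, and 0 to 5 HOXD13 member calls. HOXD9 and difference member calls were 0 in every alternative run. The cause of these changes was not tested, except that fewer arrays or features enter some fits.

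Signs changed only for uncalled values. GSR 225609_at with HOXD9 was 0.10 with the mean per gene, 0.05 with the ACTB covariate and 0.15 without the deviating arrays. Without those arrays TXN 216609_at with HOXD9 was 0.17 and GCLC 202923_s_at with HOXD13 was -0.02. The difference of effects was 0.26 for GCLM with the mean per gene. With the ACTB covariate it was 0.10 for HMOX1, -0.24 for ME1 204058_at, -0.06 for TXN 216609_at, 0.12 for SRXN1 and -0.05 for GCLM 234986_at, and without the deviating arrays 0.08, -0.23, -0.24, 0.17 and -0.13. Leaving out 1 array gave -0.28 to 0.17 for TXN 216609_at and -0.19 to 0.15 for GSR 225609_at with HOXD9, and -0.02 to 0.52 for HMOX1 and -0.22 to 0.01 for TXN 208864_s_at with HOXD13. For the difference it gave -0.28 to 0.21 for ME1 204058_at, -0.12 to 0.16 for SRXN1, -0.10 to 0.05 for GCLM 203925_at, -0.27 to 0.18 for TXN 216609_at, -0.34 to 0.21 for HMOX1, -0.32 to 0.02 for GSR 225609_at and -0.12 to 0.56 for GCLM 234986_at.

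No paired analysis was possible because the HOX lines carry no replicate numbers, and the numbered HA and V5 vector arrays were not compared with each other. The 4 lines of a HOX gene share 1 transfected population, each set was normalized on its own, and probe sets near background have compressed differences.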

Other observations

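With HOXD9, where no listed probe set was called by limma, the 4 lines lay on 1 side of the vector for the genes below, as they did for 32.1% of all tested probe sets. SESN3, a sestrin induced by stress, read 7.92, 7.17, 8.14 and 7.0 in the HOXD9 mix and clones a, b and c, against 8.41 to 8.45 in the HA vector arrays (log2 fold change -0.87, adjusted p = 0.176). FLVCR1, a haem exporter, read 7.63 to 8.37 in the HOXD9 lines against 8.47 to 8.56 in the HA vector arrays (-0.51, adjusted p = 0.180), and 9.38 to 9.5 in the HOXD13 lines against 9.01 to 9.15 in the V5 vector arrays (0.36, adjusted p = 0.218). CBR3, a carbonyl reductase, read 7.01 to 7.47 in the HOXD9 lines against 6.71 to 6.75 in the HA vector arrays (0.40, adjusted p = 0.176). The difference of effects did not pass for any of these 3 genes (adjusted p = 0.0956 for SESN3, 0.0534 for FLVCR1 and 0.0941 for CBR3).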
